A study of Mus musculus with 12 samples.

Results

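Fibroblast growth factor (FGF) signalling was followed here through 10 genes in the hypertrophic zone of the mouse growth plate: the 4 receptor genes Fgfr1 to Fgfr4, the ligand genes Fgf1, Fgf2 and Fgf18, and the feedback inhibitor genes Spry1, Spry2 and Dusp6. Members were taken by gene name, with every non-control probe that carries the name, which gave 22 probes of the 41174 on the array and 10 of its 27962 gene symbols. The rule itself uses no measured value. All 10 genes had at least 1 probe.

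FGFs bind receptor tyrosine kinases at the cell surface and signal through adaptors, Ras and the MAP kinase cascade. In the growth plate Fgfr3 is known as a brake on chondrocyte proliferation and maturation, and activating mutations of it cause achondroplasia. Fgf18 from the perichondrium is regarded as its main ligand there, Fgfr1 is known from hypertrophic chondrocytes, and Fgfr2 from the perichondrium and bone. Cells answer FGF signalling by transcribing Sprouty genes and Dusp6, whose products damp the Ras and ERK branches.

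The arrays compared hypertrophic zones cut with a scalpel from sections of tibial growth plates of 14 day old mice. Schmid mice are homozygous for a Col10a1 knock-in with the p.Asn617Lys change, which makes the collagen X chain misfold, and Cog mice (ColXTgcog) carry a transgene in which Col10a1 sequences drive a misfolding mutant of thyroglobulin in hypertrophic chondrocytes. Each mutant had wildtype littermates on its own background, and each of the 4 groups had 3 arrays with 1 mouse per array. Cog mice with 1 or both copies of the transgene locus were not told apart, and the endogenous Col10a1 locus of Cog mice is wildtype. The RNA went through a pair of linear amplification rounds before Cy3 labelling.

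The label of each mutant was checked first. Tgn, the thyroglobulin gene used for the transgene, averaged 17.86 ± 0.08 (SD, n = 3) on the log2 intensity scale in Cog against 9.96 ± 0.24 (SD, n = 3) in its wildtype, 239-fold higher (adjusted p = 1.2e-09). The Schmid change is a point mutation that these probes cannot show. Col10a1, the defining gene of the zone, differed by -0.02 between Schmid and its wildtype (95% interval -1.38 to 1.35, adjusted p = 0.99). Between Cog and its wildtype it differed by 1.0 (interval -0.37 to 2.36, adjusted p = 0.39), with all 3 Cog values above those of the wildtype. A 2-fold difference lies inside both intervals, so like content of the zone is not shown. Of 7 hypertrophic chondrocyte markers, 7 lay well above background on all 12 arrays. So did 6 of 7 osteoblast, 7 of 9 proliferative and resting chondrocyte, 5 of 8 endothelial and 4 of 6 red cell markers. Fewer did among osteoclast (2 of 5), neutrophil (2 of 6) and perichondrial (3 of 8) markers. Detection alone therefore does not single out the hypertrophic zone. Between 39.6% and 61.8% of spots per array were well above background, and negative control spots read 202 to 617 units on the Schmid arrays against 977 to 1894 on the other 9. Each mutant was hybridised on another slide than all of its own wildtype littermates (4 slides in all). In both mutant comparisons the slide therefore cannot be told apart from the genotype.

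Several 60 base probes read most of the receptor and ligand genes, and the results differ between probes of a gene. Sequences of some such probes are therefore given first. What makes the probes of a gene differ was not tested. Coordinates are those of the array design on mouse build mm7, and exon or intron annotation of that build was not used here. For Fgfr1, the single-spot probe with the brightest signal (chr8:24330065-24330124, plus strand) and a probe printed on 10 spots (chr8:24330044-24330103) share 39 bases with 1 difference, written A57G when counted from 1 at the 5′ end of the 10-spot probe and capitalised in both.
Fgfr1, 10 spots: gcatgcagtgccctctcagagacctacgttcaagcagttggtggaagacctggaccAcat
Fgfr1, brightest: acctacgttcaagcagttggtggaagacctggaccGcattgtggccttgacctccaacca
For Fgf2, the probe on 10 spots has ends 47220 bases apart on the genome (chr3:37159793-37207012), so its 60 bases are not contiguous there, while the single-spot probe lies at chr3:37215398-37215457. These are shown because only the first gave a signal above background.
Fgf2, 10 spots: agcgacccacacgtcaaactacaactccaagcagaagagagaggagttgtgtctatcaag
Fgf2, single spot: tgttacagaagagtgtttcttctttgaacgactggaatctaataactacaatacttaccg
For Fgfr4, the brightest probe (chr13:54250389-54250448) and the dimmest (chr13:54250254-54250313) lie close together on the plus strand and gave differences of unlike size.
Fgfr4, brightest: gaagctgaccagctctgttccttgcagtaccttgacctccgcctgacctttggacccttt
Fgfr4, dimmest: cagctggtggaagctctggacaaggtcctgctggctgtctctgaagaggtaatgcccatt

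Signals are given as log2 of the background-corrected, quantile-normalised intensity, and a difference is the mutant mean minus the mean of its own wildtype on that scale. A call required a change of at least 2-fold and, by limma with Benjamini-Hochberg adjustment over all probes of the array, an adjusted p no higher than 0.05. Each gene was read at its brightest probe, and levels of different probes were not set against each other. Of the 22 member probes, 8 were well above background on all 12 arrays and 4 on none, and 0 were saturated on any array.

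In the Schmid hypertrophic zone 4 of the 10 genes fell at their brightest probe, namely Dusp6, Spry1, Fgfr4 and Fgfr1, and 0 rose. By probe, 5 of 22 were lower and 0 higher, where over all probes 4.69% were called lower and 5.78% higher. The median difference of the 22 probes was -0.41, with 18 negative and 4 positive, against -0.06 over all probes. In the Cog zone 1 gene rose, Fgf2, and 0 fell, where 1.56% of all probes were called higher and 0.748% lower. The median of the 22 Cog differences was 0.02 against 0.00 over all probes. By adjusted p alone, without the 2-fold limit, 6 member probes passed in Schmid and 2 in Cog. Over all 41174 probes, 9871 passed that limit in Schmid and 1886 in Cog.

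**Figure D1:**
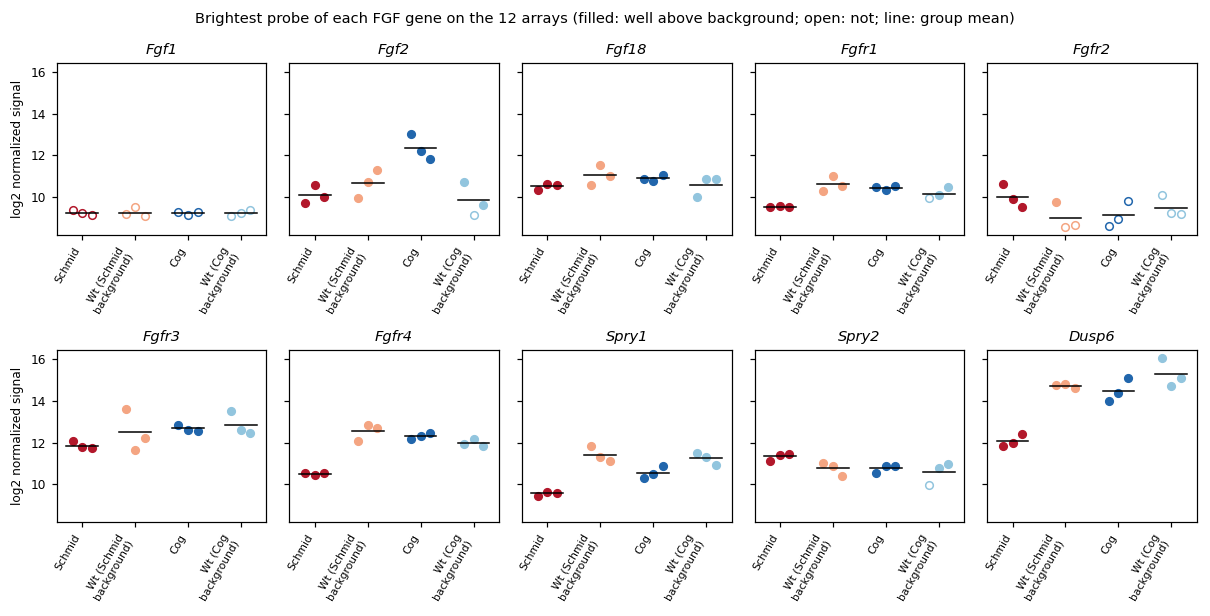
Log2 normalised intensity of the brightest probe of each of the 10 genes on all 12 arrays, 1 point per mouse in 4 groups of 3, filled where well above background, with a line at the group mean. The Schmid points lie below all other points for Dusp6, Spry1, Fgfr4 and Fgfr1, and the Cog points above all others for Fgf2.

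Dusp6 encodes a cytoplasmic phosphatase that dephosphorylates ERK and is itself transcribed in response to FGF signalling. Its single probe (chr10:98828759-98828818, plus strand) read 11.83, 12 and 12.42 in the 3 Schmid zones and 14.73, 14.81 and 14.59 in their wildtype littermates. In Cog it read 13.97, 14.39 and 15.06 against 16.04, 14.72 and 15.06 in wildtype. The highest Schmid value lay 2.17 below the lowest of its wildtype, while Cog and its wildtype overlapped. Dusp6 was thus 6.17-fold lower in Schmid (log2 difference -2.63, SE 0.35, adjusted p = 0.00080), and in Cog the difference was -0.80 with a 95% interval from -1.57 to -0.03 (adjusted p = 0.22). The Schmid call held in all alternatives run, with differences down to -3.0.

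Spry1, a Sprouty family inhibitor that acts between receptor tyrosine kinases and the MAP kinase cascade, had 1 probe (chr3:37455053-37455112, plus strand). It read 9.47, 9.64 and 9.61 in Schmid against 11.82, 11.30 and 11.12 in wildtype, and 10.31, 10.49 and 10.86 in Cog against 11.49, 11.32 and 10.93 in wildtype. Neither mutant overlapped its own wildtype, with gaps of 1.48 in Schmid and 0.07 in Cog. Spry1 fell 3.57-fold in Schmid (-1.84, SE 0.21, adjusted p = 0.00044), and the Cog difference of -0.70 (SE 0.21) did not pass (adjusted p = 0.094). From Agilent's processed signal with 75th percentile scaling the Schmid value was larger, at -3.21.

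Spry2, the second Sprouty gene among the members, was not lowered. Its brighter probe (chr14:100321854-100321913, minus strand) read 11.13, 11.42 and 11.46 in Schmid and 11.03, 10.88 and 10.38 in wildtype, so that the groups were separated by 0.10 with Schmid above. The difference of 0.57 had a 95% interval from 0.00 to 1.15 and did not pass (adjusted p = 0.13). The other Spry2 probe differed by -0.23 in Schmid (adjusted p = 0.32), and in Cog the brighter one differed by 0.18 with an interval from -0.39 to 0.75 (adjusted p = 0.73).

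Since Dusp6 and Spry1 were both lower in Schmid, the 250 bases before their RefSeq starts (build GRCm38.p6) are printed, at chr10:99262981-99263230 and chr3:37639697-37639946, both on the plus strand. Capitals mark matches, on either strand, to CCAAT or to the GC box letters GGGCGG.
Dusp6: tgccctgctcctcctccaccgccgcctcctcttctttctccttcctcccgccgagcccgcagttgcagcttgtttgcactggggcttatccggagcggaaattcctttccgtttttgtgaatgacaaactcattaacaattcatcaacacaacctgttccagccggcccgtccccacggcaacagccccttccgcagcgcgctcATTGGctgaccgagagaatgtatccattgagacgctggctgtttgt
Spry1: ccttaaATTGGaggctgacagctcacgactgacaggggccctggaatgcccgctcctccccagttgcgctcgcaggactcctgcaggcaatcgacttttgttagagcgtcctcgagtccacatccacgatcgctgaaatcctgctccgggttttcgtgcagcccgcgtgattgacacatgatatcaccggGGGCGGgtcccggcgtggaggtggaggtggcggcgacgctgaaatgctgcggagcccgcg
A CCAAT box lay 46 to 42 bases before the Dusp6 start and 244 to 240 before that of Spry1, and a GC box lay 60 to 55 before that of Spry1. Of 32851 promoter windows of the same length, 33.8% held CCAAT and 32.7% GGGCGG. The letters of an ETS site (CCGGAAG, in 6.91% of windows), an AP-1 site (TGAGTCA, 4.46%), a CRE (TGACGTCA, 1.55%) and a TATA box (TATAAA, 12.4%) were in neither window, which says only that these exact letters are absent from 250 bases.

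Among the receptors, Fgfr4, a receptor known best from liver and muscle, gave the largest fall of the 4. Its brightest probe read 10.54, 10.46 and 10.56 in Schmid and 12.07, 12.83 and 12.71 in wildtype, against 12.17, 12.33 and 12.46 in Cog and 11.91, 12.19 and 11.86 in its wildtype. Every Schmid value lay under every value of the other 3 groups. The fall was 4.05-fold (-2.02, SE 0.19, adjusted p = 0.00017), and the Cog difference was 0.34 with an interval from -0.08 to 0.75 (adjusted p = 0.33).

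The other Fgfr4 probes moved less. A probe further downstream (chr13:54251006-54251065) read 9.75, 10.62 and 10.45 in Schmid against 11.13, 11.85 and 11.53 in wildtype and fell by 1.23 (SE 0.29, adjusted p = 0.014), a call lost without Schmid replicate 1 (-0.97, adjusted p = 0.051) and without replicate 2 of its wildtype (-1.06, adjusted p = 0.058). The dimmest probe read 10.18, 10.24 and 10.24 against 10.32, 10.93 and 10.86, which is a difference of -0.48 under the 2-fold limit (adjusted p = 0.042). At this probe Cog exceeded its wildtype by 0.71 (adjusted p = 0.030), also under the limit. The 3 Fgfr4 probes therefore agreed in sign in each mutant and differed in size.

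Fgfr1, the receptor of hypertrophic chondrocytes, fell at its brightest probe only. It read 9.56, 9.57 and 9.54 in Schmid against 10.32, 11.03 and 10.56 in wildtype, without overlap, and 10.50, 10.33 and 10.56 in Cog against 9.97, 10.10 and 10.48. The fall was 2.11-fold (-1.08, SE 0.19, adjusted p = 0.0030), and without replicate 2 of the Schmid wildtype it shrank to -0.88, under the 2-fold limit, while the processed signal with 75th percentile scaling gave -1.98. The 10-spot probe, which shares the 39 bases printed above, differed by -0.25 (adjusted p = 0.35) and another by -0.14 (adjusted p = 0.41). The dimmest, above background on no Schmid array, did not pass (-0.67, 95% interval -1.17 to -0.17, adjusted p = 0.053). The Cog difference at the brightest probe was 0.28 (adjusted p = 0.43).

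Place on the array moved with these results. Over the 12134 single-spot probes in array rows 1 to 159, 10.4% were lower in Schmid and the median difference was -0.25, against 2.27% and 0.01 for 28795 probes in rows 160 to 532. The brightest probes of Fgfr1, Fgfr4 and Spry1 and the second Fgfr4 probe lie in rows 39, 60, 79 and 88, and Dusp6 in row 340. Across the spots of the 10-spot Fgfr1 probe the Schmid difference ran from -0.60 at row 154 to 0.21 at row 340, and the Cog difference from -0.69 to 0.45. With a smooth trend over rows removed, Fgfr4 differed by -1.77 and Spry1 by -1.60 (adjusted p = 0.0013), both still called, and Fgfr1 by -0.82 (adjusted p = 0.010), under the 2-fold limit. With trends over rows and GC content removed, Fgfr4 differed by -1.40 and Spry1 by -1.65, both called, Fgfr1 by -0.45 and the second Fgfr4 probe by -0.63 (adjusted p = 0.060).

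**Figure D2:**
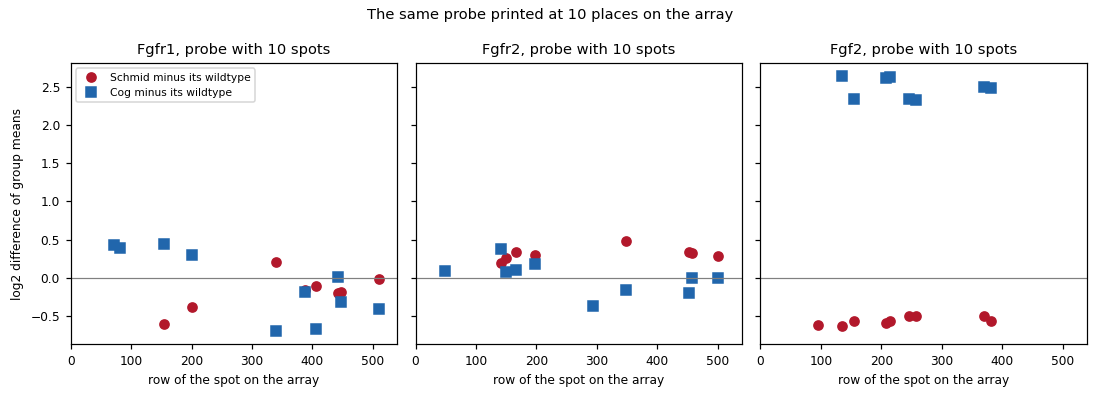
Log2 difference of each mutant from its wildtype at every spot of the 3 member probes printed on 10 spots, against the row of the spot on the array. The Fgfr1 spots span -0.60 to 0.21 for Schmid and -0.69 to 0.45 for Cog, while the Fgf2 spots keep to 2.33 to 2.64 in Cog at all rows with a value.

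Fgfr3 is the receptor for which the growth plate is best known. Its brightest probe (chr5:32799441-32799500, plus strand) read 12.09, 11.77 and 11.72 in Schmid against 13.58, 11.64 and 12.24 in wildtype, and 12.85, 12.62 and 12.57 in Cog against 13.50, 12.62 and 12.45. Both mutants overlapped their wildtypes, in each of which replicate 1 was highest. The difference was -0.63 in Schmid with a 95% interval from -1.57 to 0.32 (adjusted p = 0.30) and -0.18 in Cog with one from -1.13 to 0.77 (adjusted p = 0.85), so a 2-fold fall lies inside both intervals. Leaving out single arrays moved the Schmid value between -1.05 and -0.08. A second probe that overlaps the first (chr5:32799418-32799477) differed by -0.59 and 0.01 (adjusted p = 0.20 and 0.99), and the last was above background on no array.

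Fgfr2 was near the background. Its brightest probe (chr7:126278278-126278337, minus strand) read 10.66, 9.91 and 9.55 in Schmid, all well above background, and 9.77, 8.58 and 8.68 in wildtype, of which only the first was. The difference of 1.03 (SE 0.43) did not pass (adjusted p = 0.10), although it was called with array weights (1.01, adjusted p = 0.035) and without replicate 1 of the Schmid wildtype (1.41, adjusted p = 0.032). This probe was above background on no array of Cog or its wildtype, although it read 9.82 on Cog replicate 3 and 10.09 on replicate 1 of the Cog wildtype. Those values exceed the 9.55 that passed on a Schmid array, where negative controls read 202 to 617 against 977 to 1894 elsewhere. The flags therefore do not compare Fgfr2 between groups. The 10-spot Fgfr2 probe differed by 0.32 in Schmid (adjusted p = 0.23), and the last probe was never above background.

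Of the ligands, Fgf2, basic FGF, rose in Cog. The 10-spot probe read 13.02, 12.20 and 11.81 in Cog and 10.74, 9.18 and 9.63 in wildtype, the 9.18 not well above background, against 9.71, 10.61 and 10.03 in Schmid and 9.96, 10.73 and 11.32 in its wildtype. All Cog values were above all others, by 1.07 for Cog against its own wildtype. The rise was 5.62-fold (2.49, SE 0.48, adjusted p = 0.020), while Schmid differed by -0.56 (adjusted p = 0.41). On the 8 of its 10 spots for which a Cog difference could be formed, this lay between 2.33 and 2.64.

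The Cog call for Fgf2 depended on single arrays, since it was lost without Cog replicate 1 (2.15, adjusted p = 0.054), without replicate 2 of the Cog wildtype (2.16, adjusted p = 0.082) and without its replicate 3 (2.38, adjusted p = 0.068). Fitted on the Cog arrays and their wildtype alone, which were scanned on 1 day, the difference was 2.49 with an adjusted p of 0.070, and the processed signal with 75th percentile scaling gave 4.15 (adjusted p = 0.065). The single-spot Fgf2 probe was above background on no array of any group.

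Fgf18, the perichondrial ligand of Fgfr3, read 10.37, 10.62 and 10.59 in Schmid against 10.59, 11.55 and 11, and 10.87, 10.77 and 11.08 in Cog against 10.04, 10.86 and 10.90. Both mutants overlapped their wildtypes, and the differences were -0.51 (interval -1.11 to 0.08, adjusted p = 0.18) and 0.31 (interval -0.29 to 0.90, adjusted p = 0.56). Fgf1, acidic FGF, was not measurable: its brighter probe was above background on no array, and the other on 1 only, replicate 1 of the Cog wildtype, at 12.19 against 8.49 to 9.29 on the other 11.

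**Figure D3:**
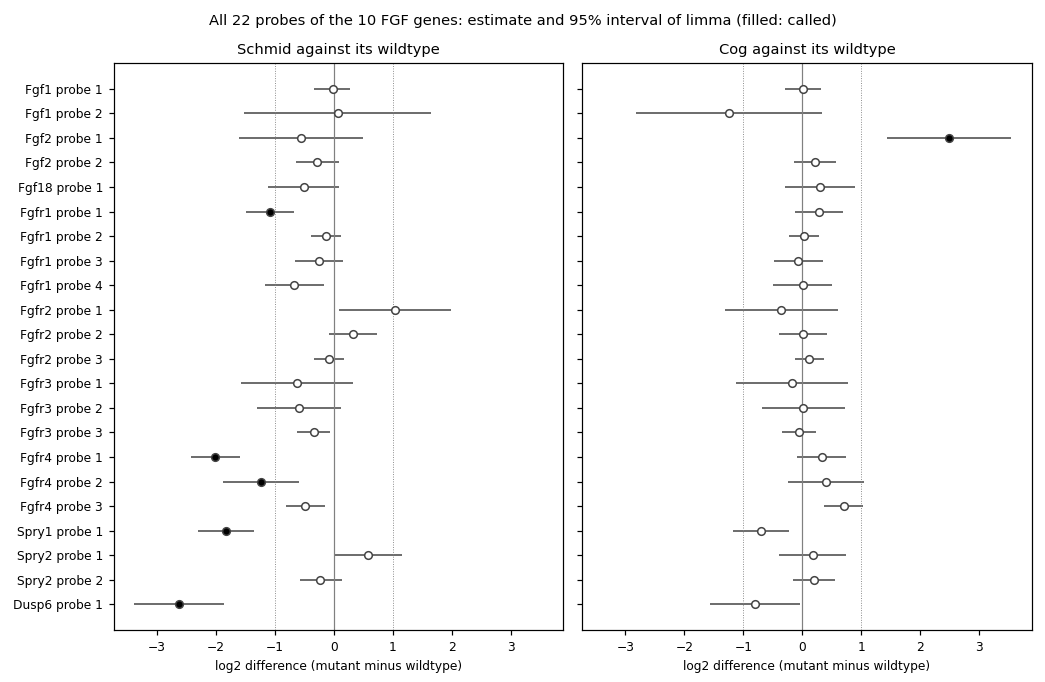
Log2 difference of each of the 22 member probes in Schmid and in Cog against their own wildtypes, with 95% intervals from the limma fit and called probes filled. Dusp6, Spry1, Fgfr4 and Fgfr1 stand to the lower side in Schmid, and Fgf2 to the higher side in Cog at 2.49.

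The difference between the Schmid and the Cog effect was tested as its own contrast. It passed at 7 of the 22 probes, 7 of them more negative in Schmid and 0 more positive, where 5.88% of all probes were called lower and 4.38% higher. By gene these were Fgf2 (-3.05, adjusted p = 0.014), Fgfr4 (-2.36, adjusted p = 0.00078), Dusp6 (-1.82, adjusted p = 0.031), Fgfr1 (-1.36, adjusted p = 0.0077) and Spry1 (-1.14, adjusted p = 0.029). For Fgfr4 and Fgfr1 the Schmid effect was negative and that of Cog positive, for Dusp6 and Spry1 both were negative, and for Fgf2 the Cog rise made most of the difference. The Dusp6 contrast lost its call in 8 of 12 fits that left out 1 array (adjusted p up to 0.072) and that of Spry1 in 7 of 12 (up to 0.067). At the second Fgfr4 probe the contrast lost its call in 4 of 12 such fits (up to 0.058) and in 8 of 24 alternatives in all. With the row trend removed the Spry1 contrast was -0.77 (adjusted p = 0.13) and that of Fgfr1 -0.97, under the 2-fold limit. Fgfr2, Fgfr3, Fgf1, Fgf18 and Spry2 had no probe that passed.

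The wildtype groups were set against each other as a comparison without either mutation. Background, slide and scan day are mixed in it. It holds no array from the slide of the Schmid arrays, so it cannot show what that slide contributes. No member probe was called, where 0.233% of all probes were higher and 0.236% lower in the wildtype of the Schmid background. By adjusted p alone 0 of 22 passed, against 359 of all 41174 probes. The median difference was 0.11, and the dimmest Fgfr4 probe came nearest to passing (0.77, adjusted p = 0.051).

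**Figure D4:**
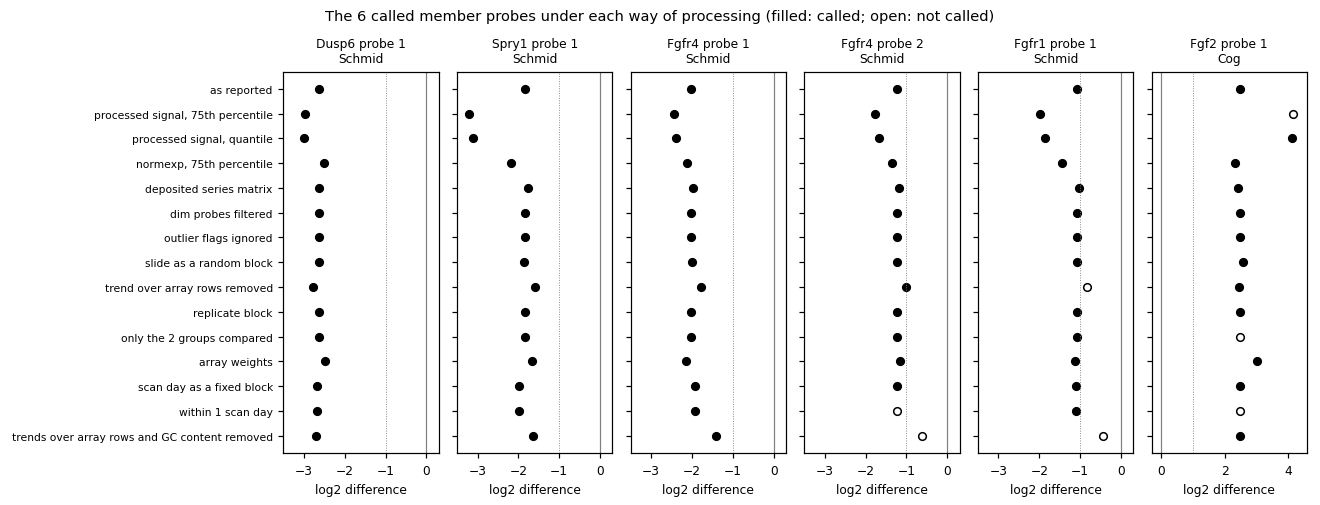
Log2 difference (x axis) of the 6 called member probes, 5 in Schmid and 1 in Cog, as reported and under each other way of processing or fitting the arrays (y axis), with filled points called and open points not. Dusp6 stays between -3.0 and -2.49 and is filled throughout, while Fgfr1 reaches -0.45 and is open where trends over rows and GC content are removed.

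Markers of other cells in or beside the cut zone moved with the Schmid falls, and in these bulk samples fewer cells of a type and less RNA per cell cannot be told apart. Of 8 endothelial markers, 4 fell in Schmid (Cdh5, Kdr, Emcn and Flt1, the last by 2.16) and 1 rose (Vwf), while Pecam1 was above background on no array. Their summed level was 13.08 to 13.84 in Schmid, 14.62 to 15.60 in its wildtype, 14.28 to 15.04 in Cog and 15.20 to 15.43 in its wildtype. Of 6 red cell genes 3 fell, with sums of 14.63 to 16.07 in Schmid against 17.95 to 19.91. Of 9 markers of proliferative and resting chondrocytes, 3 fell in Schmid and 0 in Cog, and of 7 osteoblast markers 1 fell in each mutant. Of 7 hypertrophic markers 1 fell in each, which was Ihh (-3.55 in Schmid, -1.37 in Cog). No osteoclast, neutrophil or perichondrial marker was called in Schmid. Beside these counts, 4.69% of all probes were called lower and 5.78% higher in Schmid, and 0.748% and 1.56% in Cog. Neutrophil sums ran from 14.46 to 16.91 in Cog against 13.42 to 13.94 in its wildtype. In Schmid they ran from 12.35 to 15.39, and in its wildtype from 13.01 to 18.71. The part of these cells in the member differences was not tested.

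The rest of the pathway was read from 4 lists. Over all probes 5.78% were called higher and 4.69% lower in Schmid, and 1.56% and 0.748% in Cog. Counts of 1 in a list are therefore not read as results about that list. Of 18 other FGF ligands, 1 rose and 1 fell in Schmid and 1 rose in Cog, with medians of -0.09 and 0.18. Of 7 co-receptors and ligand-binding proteins 1 rose in Schmid and 0 were called in Cog, with medians of 0.05 and -0.27. Of 18 adaptors and kinases 1 rose and 1 fell in Schmid and 0 were called in Cog, with medians of -0.03 and -0.21. Of 14 other feedback inhibitors and target genes 3 rose and 3 fell in Schmid, and 1 rose and 1 fell in Cog, with a median of -0.32 in both.

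**Figure D5:**
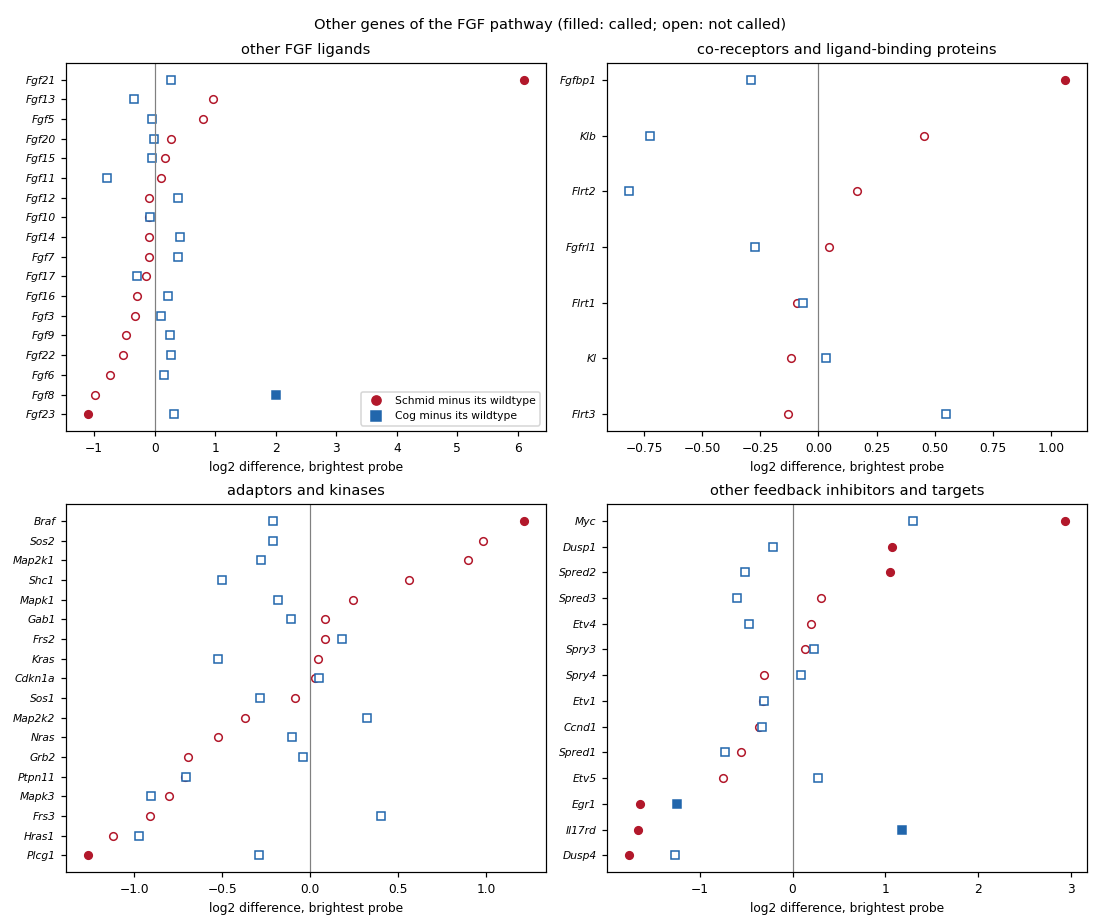
Log2 differences in Schmid and Cog of the genes of the 4 pathway lists at their brightest probes, with circles for Schmid, squares for Cog and called genes filled. Fgf21 stands alone at 6.10 in Schmid, and the other genes lie between -1.76 and 2.93 in both mutants.

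Fgf21, an endocrine FGF that cells transcribe under stress and that signals with the co-receptor Klb, had the largest change of any pathway gene listed. It read 16.17, 16.05 and 15.78 in Schmid against 9.60, 9.92 and 10.19 in wildtype, which is 68.5-fold higher (6.10, SE 0.27, adjusted p = 3e-06). In Cog it read 10.36, 11 and 10.58 against 10.96, 9.97 and 10.19, overlapping, with a difference of 0.28 (adjusted p = 0.60). A second Fgf21 probe rose in both, by 1.82 in Cog and by at least 261-fold in Schmid, where the wildtype was not well above background. Klb itself differed by 0.45 in Schmid and by -0.73 in Cog (adjusted p = 0.023 and 0.012), both under the 2-fold limit.

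Other ligands moved less. Fgf8, an embryonic limb ligand, rose in Cog by 2.00 (adjusted p = 0.029) at a 10-spot probe and differed by 0.11 at its second probe, and that call was lost without Cog replicate 1 (1.61, adjusted p = 0.070), without replicate 2 of the Cog wildtype (1.73, adjusted p = 0.11), without its replicate 3 (2.16, adjusted p = 0.064) and with the replicate block (2.00, adjusted p = 0.055). Fgf23, the phosphate-regulating hormone, fell by 1.10 in Schmid (adjusted p = 0.00039) and was under the 2-fold limit without replicate 2 of the Schmid wildtype (-0.99), with the row trend removed (-0.85) and with trends over rows and GC content removed (-0.48). Fgfbp1, which releases stored FGFs from the matrix, rose in Schmid by at least 1.52-fold (adjusted p = 0.0065), a call lost in 7 of 26 alternatives. Its fitted difference was under the 2-fold limit without Schmid replicate 1 (0.95) and without replicate 1 or 3 of the Schmid wildtype (0.98 and 0.93), and 0.74 by normexp with 75th percentile scaling (adjusted p = 0.084). Fgfrl1, a receptor-like protein without a kinase, differed by 0.05 in Schmid and -0.27 in Cog (adjusted p = 0.91 and 0.60). Of the further ligands with most signal, none was called: Fgf13 differed by 0.96 in Schmid (adjusted p = 0.0063), Fgf6 by -0.74 (adjusted p = 0.0022), Fgf11 by 0.11 and Fgf14 by -0.09 (adjusted p = 0.59 and 0.67), and Fgf11 by -0.78 in Cog (adjusted p = 0.015). The membrane proteins Flrt2 and Flrt3, which bind FGF receptors, differed by 0.17 and -0.13 in Schmid (adjusted p = 0.71 and 0.86).

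Between receptor and nucleus, Plcg1, a phospholipase recruited by FGF receptors, fell in Schmid by 1.26 (adjusted p = 0.0038) at its brightest probe and differed by -0.15 and -0.11 at the others. Braf, a kinase of the MAP kinase cascade, rose by 1.21 (adjusted p = 0.045), a call lost in 17 of 26 alternatives. Frs2, the docking protein of FGF receptors, differed by 0.08 and 0.18 (adjusted p = 0.66 and 0.45), and Cdkn1a, the cell cycle inhibitor that FGF signalling induces in chondrocytes, by 0.03 and 0.05 (adjusted p = 0.92 and 0.90). Ptpn11, the phosphatase Shp2 that links Frs2 to Ras, differed by -0.71 in both mutants (adjusted p = 0.028 and 0.074), and Map2k2, the kinase above ERK, by -0.37 and 0.32 (adjusted p = 0.18 and 0.36).

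The other feedback and target genes had no common direction. Il17rd (Sef), an inhibitor of FGF receptor signalling at the membrane, read 10.83, 10.62 and 10.59 in Schmid against 11.91, 12.56 and 12.57, and 12.30, 12.16 and 12.45 in Cog against 10.93, 11.29 and 11.16. It fell by 1.66 in Schmid (adjusted p = 0.00037) and rose by 1.18 in Cog (adjusted p = 0.0097), while its wildtype groups differed from each other by 1.22 (adjusted p = 0.019). A second Il17rd probe fell by 1.33 in Schmid and differed by 0.18 in Cog. Egr1, an immediate early gene of the ERK pathway, fell by 1.65 in Schmid (adjusted p = 0.0032) and by 1.25 in Cog (adjusted p = 0.038). The Schmid call of Egr1 held in all 26 alternatives, while the Cog call was lost in 14 of 26, among them 9 of 12 that left out 1 array (adjusted p up to 0.099) and the replicate block (adjusted p = 0.054).

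Dusp4, a nuclear relative of Dusp6, fell by 1.76 in Schmid (adjusted p = 0.049), a call lost in 16 of 26 alternatives. Dusp1, a stress-induced phosphatase of the same family, rose by 1.07 (adjusted p = 0.022), Spred2, a Sprouty-related inhibitor, by 1.05 (adjusted p = 0.035) and Myc, a proliferation gene, by 2.93 (adjusted p = 0.0087). The Spred2 call was lost in 15 of 26 alternatives, the replicate block among them (adjusted p = 0.057), and that of Myc in 1, within 1 scan day (2.46, adjusted p = 0.086). The Dusp1 call was lost in 7 of 26: without each Schmid array in turn (adjusted p = 0.067, 0.050 and 0.059), without replicate 2 or 3 of the Schmid wildtype (0.91 in both, adjusted p = 0.085 and 0.075), with scan day as a block and within 1 scan day. Etv4, an ETS factor induced by FGFs, differed by 0.20 in Schmid and -0.47 in Cog (adjusted p = 0.50 and 0.22). Its relative Etv5 differed by -0.75 and 0.27 (adjusted p = 0.011 and 0.39), and Ccnd1, a cyclin, by -0.36 and -0.33 (adjusted p = 0.24 and 0.42). Spred1, a relative of Spred2, differed by -0.56 and -0.73 (adjusted p = 0.10 in both).

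Over the 12 arrays and 10423 genes, those most like Fgfr3 were Ppic (Pearson's r = 0.959), Adamts3 (0.956), Pdgfrl (0.940), Lect1 (0.940) and Matn3 (0.937). Those most like Dusp6 were Mpped2 and Nid1 (both 0.977), Mmrn2 and Ptprf (both 0.974) and Usp53 (0.972). All genes share the same arrays and groups. Once each group's mean was taken off, r lay between 0.91 and 0.98 for the Fgfr3 set and between 0.68 and 0.84 for the Dusp6 set. Spearman's rho lay between 0.888 and 0.965 for the Fgfr3 set and between 0.811 and 0.888 for the Dusp6 set. These genes were picked as the highest of 10423 on the same arrays, so none of these values tests the likeness.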

How the data were processed

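The authors scanned 12 1-colour Agilent arrays and deposited Feature Extraction 9.5.3 output, whose mean and background intensity columns were used. The authors' deposited series matrix of log2 values served as an alternative. In R 4.3.3, limma 3.58.1 corrected the background (normexp, offset 50), control and outlier-flagged spots were left out, arrays were quantile-normalised, spots of a probe averaged, and 4 group means fitted to all 12 arrays. Spread is estimated with 8 residual degrees of freedom and from 3 arrays a group, which limits precision, and 33 probes lacked a value on some array. P-values measure the spread between mice and their separate amplifications. Each "at least" fold sets the bright group's mean against the dim group's, each dim array being raised to the lowest signal well above background. It is a fold between means without an interval, so the spread between mice can allow a smaller change. Members and lists were chosen with earlier results of these data known. Genes were named by fixed membership, by calls in the pathway lists, and by signal (up to 4 further genes of each list). Likeness took the 5 highest correlations. Some pathway genes are not reported here.

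Same-numbered Schmid and wildtype arrays deviated together (r = 0.306, 0.283 and 0.117) and were treated as paired in the alternative with a replicate block. In Cog r was -0.209, 0.153 and -0.201, and between same-numbered arrays of the wildtype groups it was 0.505, 0.115 and 0.274. The labels do not say what the replicate numbers mark. The fit was tested on simulated data for the Schmid comparison only. Of 100 planted changes of 3 on the log2 scale 93% were recovered, and of 100 of 1.5 66%, with 4 unchanged probes called. A change of 1.5 or less can therefore go uncalled. Of the alternative settings, 25 (12 of them left out 1 array) covered processing, filtering, blocks and weights. After seeing the data 3 more were added: scan day as a block, a fit within 1 scan day, and removal of row and GC trends. At a single probe up to 26 settings were run, and up to 24 for the difference of the effects.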

Additional observations from a re-analysis of the deposited data

Results flagged for a closer look

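The Schmid effect differed from the Cog effect at 7 of 22 member probes and the brightest probe of 9 other pathway genes named. The test was limma's for that contrast, with Benjamini-Hochberg adjustment over all probes and a 2-fold limit. Over all probes 5.88% were called lower and 4.38% higher. Some genes were named for their calls in a mutant, so the 9 are no share of the pathway. In the full lists 2 of 18 other ligands were higher and 2 lower. Of 7 co-receptors and ligand-binding proteins 2 were higher. Of 18 adaptors and kinases 1 was lower, and of 14 other feedback inhibitors and targets 1 was higher and 2 lower. Among members the log2 contrast (Schmid effect minus Cog effect) was -3.05 for Fgf2 (SE 0.67), -2.36 for Fgfr4 (SE 0.26), -1.64 and -1.19 for its other probes (SE 0.41 and 0.21), -1.82 for Dusp6 (SE 0.49), -1.36 for Fgfr1 (SE 0.26) and -1.14 for Spry1 (SE 0.30). The contrast of -1.64 at the second Fgfr4 probe was not called in 8 of 24 alternatives (adjusted p up to 0.082).

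Among the other ligands the contrast was 5.82 for Fgf21 (adjusted p = 0.00012), -2.98 for Fgf8 (adjusted p = 0.0094), -1.42 for Fgf23 (adjusted p = 0.0011) and 1.30 for Fgf13 (adjusted p = 0.011). For the co-receptor Klb it was 1.18 (adjusted p = 0.0020) and for Fgfbp1 1.35 (adjusted p = 0.015). Among feedback and target genes it was -2.84 for Il17rd (adjusted p = 0.00045), 1.56 for Spred2 (adjusted p = 0.037) and -1.02 for Etv5 (adjusted p = 0.017). Of 24 alternatives the call was lost in 15 for Spred2 (adjusted p up to 0.12), 8 for Etv5 (-0.64 with the row trend removed, adjusted p = 0.098), 3 for Klb, 2 for Fgf13 and 1 each for Fgf23 and Fgfbp1, and in 0 for Fgf21, Fgf8 and Il17rd. Fgf13, Klb and Etv5 were called in neither mutant by itself. Slides differ between all of these groups except that the Cog arrays share a slide with 1 wildtype array of the Schmid background, and the part of the slide was not tested.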

How the results depend on the processing

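The number of member genes called at their brightest probe was 4 in Schmid, 1 in Cog, 5 for the difference of the effects and 0 between wildtypes. The Cog count was 0 from Agilent's processed signal with 75th percentile scaling, from only the 2 groups compared and within 1 scan day. The count for the difference was 3 with the row trend removed and 3 with row and GC trends removed. Leaving out 1 array gave 3 to 5 genes in Schmid, 0 to 1 in Cog, 3 to 5 for the difference and 0 between wildtypes. With the replicate block the counts were 4, 1, 5 and 0, and no member call of a mutant against its wildtype changed. No difference of a called member changed its sign in any alternative.

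Scaling mattered over all probes: with the processed signal and that scaling, the median difference moved to -0.40 in Schmid and 0.43 in Cog, and the Schmid calls to 2979 higher and 4029 lower, against 2380 and 1930. The processed signal after quantile normalisation gave 2888 and 3984, and normexp with 75th percentile scaling 2569 and 3455. In Cog the processed signal gave 276 and 85 with 75th percentile scaling and 1014 and 545 after quantile normalisation, against 644 and 308. Cog calls were also 1111 and 1002 with array weights, 988 and 654 with slide as a random block, 435 and 242 by normexp with 75th percentile scaling, 364 and 133 from only the 2 groups, and 198 and 105 without replicate 2 of the Cog wildtype. Schmid calls were 3683 and 2692 without replicate 1 of its wildtype, 1420 and 1407 without replicate 2, and 1411 and 1444 within 1 scan day. The causes were not tested. Signal over background limits Fgf1, Fgfr2 and the single-spot Fgf2 probe.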
